A study of Mus musculus with 59 samples.

Results

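Acod1 (also called Irg1) encodes cis-aconitate decarboxylase, the mitochondrial enzyme that turns the citric acid cycle intermediate cis-aconitate into itaconate. It was followed here as 1 gene of the 21706 in the expression tables, across 12 groups of uterine tissue, day of pregnancy and genotype. It was chosen by its measured levels, which differed widely between these groups, so its levels and differences are given as a description, with no test on Acod1 itself. Per-library levels are TPM (abundance scaled for transcript length and to a common total per library), and differences between groups are log2 values with their standard error (SE) from a model of the counts.

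Itaconate is best known from activated macrophages and neutrophils, in which Toll-like receptor and NF-kB signalling switch Acod1 on. There it inhibits succinate dehydrogenase and modifies cysteines on proteins such as KEAP1, which releases the oxidant-response factor NRF2. In the mouse uterus, Acod1 is also a known progesterone-responsive gene of the luminal epithelium before implantation, so both leukocytes and epithelium can carry its transcript.

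All 29 females carried 1 null allele of Esr1, the gene of oestrogen receptor alpha. Control mice (Esr1f/-) had a floxed second allele, and knockout mice (epiERα-/-) also carried Wnt7aCre/+, a Cre active in uterine epithelium, so that the floxed allele was to be lost there and kept in stroma and muscle. The females were virgins aged about 2 to 6 months before mating, and the males (Esr1f/f or C57BL/6) were wild-type. Uteri were collected on the plug day (D0.5) or at D3.5. Libraries were made from an undigested piece of uterus (U, 20 libraries) and from a piece digested with 0.5% dispase for 30 min (DU, 13 libraries). The luminal epithelium scraped out after that digestion gave the third tissue (LE, 26 libraries). Not every mouse had a library of each tissue. Libraries are numbered by mouse, and no mouse gave 2 libraries to the same group. Each tissue's RNA was extracted together as its own batch, so tissues cannot be told apart from extractions. Both genotypes and both days shared an extraction.

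Total counts per library ran from 13500000 to 80300000 in LE, from 11300000 to 108000000 in U and from 14100000 to 46200000 in DU, and Acod1 itself had between 299 and 60953 counts in every library. No pair of libraries within a group was alike within counting noise (lowest chi-square per degree of freedom 9.76 over 134 pairs). All 11 epithelial genes of a marker list (keratins, Epcam, Cdh1, claudins and others) were called higher in LE than in U in each genotype and day (where 20.2% and 15.8% of all genes were called higher at D0.5 and 23.5% and 23.1% at D3.5, in controls and knockouts), so LE met its label. Esr1 in LE at D0.5 was 9.4 ± 3.07 TPM (SD, n = 7) in knockout and 36.1 ± 12.5 TPM (n = 9) in control libraries, and at D3.5 it was 15.5 ± 2.76 (n = 6) and 26.6 ± 12.4 TPM (n = 4). The LE libraries at D3.5 overlapped in Esr1, at 15.9 to 44.5 TPM in controls and 13.1 to 20.1 TPM in knockouts. In U, where stroma and muscle were to keep Esr1, the genotypes also overlapped at D3.5, at 19.1 to 50.4 TPM in controls and 20.9 to 60.5 TPM in knockouts. The library labelled knockout 33 held the 60.5 TPM, above all 5 controls. Esr1 in U cannot decide the genotype of a library, so this level does not show a wrong label. As a precaution, the values of that group that the text turns on are given with and without it.

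The stretch just upstream of Acod1 is shown because the knockout removes an oestrogen receptor and because NF-kB is the textbook inducer of the gene. In GRCm38.p6 (RefSeq promoter table) it lies on the plus strand at chr14:103046762-103046976, 215 bases that end before the earliest annotated start of the gene.

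Acod1 upstream region: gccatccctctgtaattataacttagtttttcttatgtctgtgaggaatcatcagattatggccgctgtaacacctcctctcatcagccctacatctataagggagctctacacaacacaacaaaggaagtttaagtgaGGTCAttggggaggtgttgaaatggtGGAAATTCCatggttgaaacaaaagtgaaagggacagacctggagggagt

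The capitals mark 2 matches. The first is GGTCA, 1 arm of an oestrogen response element, 111 bases before the RefSeq start. A match to this short motif on either strand was present in 31.5% of 32851 promoter windows of the same length. The second fits the NF-kB-like pattern GGAANNTCC, 85 bases before the start, which 2.98% of windows held. The full element, with both arms inverted and 3 bases between them (0.0517% of windows), the steroid receptor motif TGTTCT (14.1%), the interferon-stimulated response pattern (2.58%), the AP-1 pattern TGANTCA (5.97%) and TATAAA (9.75%) had no match in this window. These are letter matches only, and binding was not measured.

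In luminal epithelium at D0.5, Acod1 was about 8 times as high in knockout as in control mice, and at D3.5 both genotypes stood above all D0.5 controls. The 9 control libraries at D0.5 ran from 11.6 to 113 TPM with a median of 31.8 TPM, and the 7 knockout libraries ran from 129 to 451 TPM with a median of 301 TPM. All 7 knockout libraries lay above all 9 controls, although the lowest knockout (mouse 23) exceeded the highest control (mouse 2) by only 1.14-fold. The ratio of the mean levels was 7.98 (302 ± 112 TPM, SD, n = 7, against 37.8 ± 30.1 TPM, n = 9), and the log2 difference was 2.99 ± 0.36 (SE).

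At D3.5 the 4 LE control libraries held 175, 216, 341 and 159 TPM (mice 11, 14, 15 and 16). The 6 knockout libraries held between 117 and 274 TPM, with a median of 189 TPM, and overlapped the controls. The means were 223 ± 82.5 TPM (n = 4) in controls and 193 ± 58.4 TPM (n = 6) in knockouts, a ratio of 0.865. From the model of the counts the log2 difference was -0.59 ± 0.44, larger than the ratio of TPM gives. It lay between -0.728 and -0.2 under other settings, so its size depended on the measure. All 4 controls at D3.5 were thus above the highest control at D0.5 (113 TPM), with a log2 difference of 2.42 ± 0.39 between the days. In knockouts the D3.5 level was lower than at D0.5 by a log2 difference of -1.16 ± 0.39 (-1.35 to -0.599 under other settings), with overlapping libraries. The difference of the knockout effect between the days was -3.58 ± 0.56. Knockout mice 35, 36 and 37 (238, 149 and 274 TPM), which earlier work on these libraries had set apart in other genes, overlapped mice 31, 32 and 34 (117, 172 and 207 TPM) in Acod1. Without those 3 mice the 3 log2 differences that involve knockouts at D3.5 were -0.73 against control, -1.35 against D0.5 and -3.75 for the difference of the effect.

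**Figure D1:**
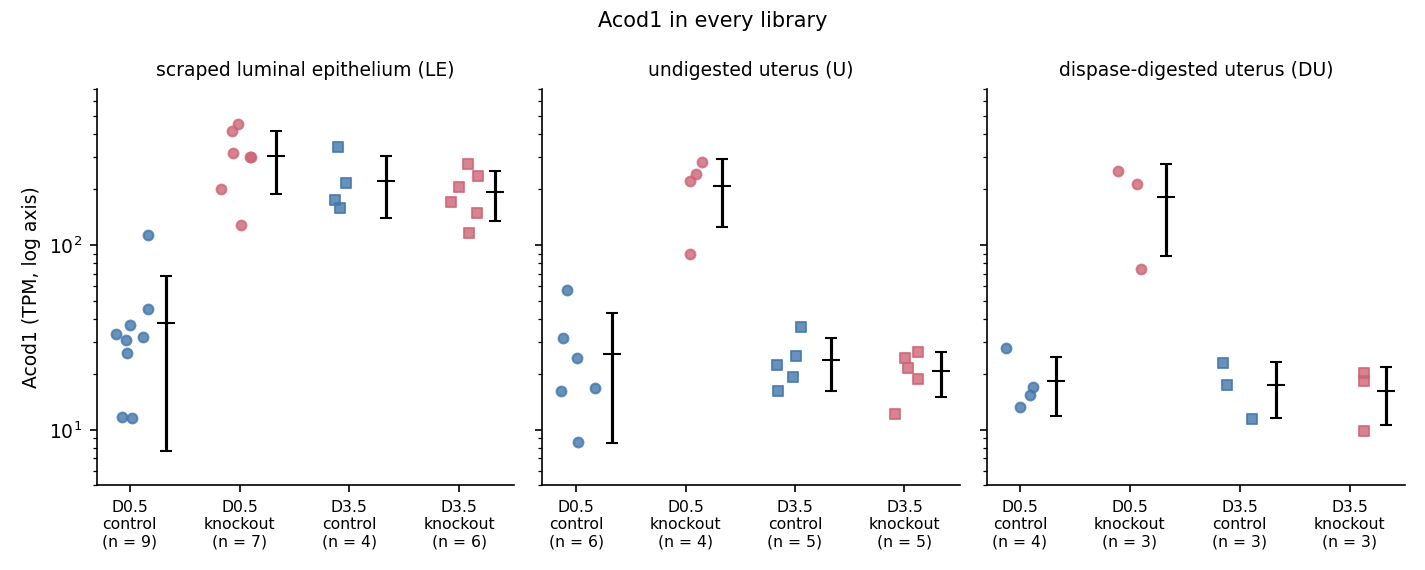
Acod1 in TPM (log axis) in every library of LE, U and DU, 1 point per library, by day and genotype; the bar beside each group is the mean ± SD. Knockout libraries at D0.5 lie above all controls in each tissue, and in LE both genotypes are high at D3.5 (223 and 193 TPM), whereas U and DU are low (16.2 to 23.8 TPM).

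In undigested uterus the D0.5 pattern was the same and the D3.5 pattern was not. The 6 control libraries at D0.5 ran from 8.55 to 57.1 TPM (median 20.7 TPM), and the 4 knockout libraries held 222, 241, 89.5 and 282 TPM (mice 21, 25, 26 and 27). All 4 knockouts lay above all controls, with a ratio of means of 8.11 and a log2 difference of 3.02 ± 0.39. At D3.5 the controls held 22.4, 25.0, 19.3, 16.2 and 35.9 TPM (mice 11, 12, 13, 14 and 16), and the knockouts held 18.8, 21.7, 12.1, 26.3 and 24.5 TPM (mice 32, 33, 34, 35 and 37). These groups overlapped, with a ratio of means of 0.87 and a log2 difference of -0.18 ± 0.38. The library labelled knockout 33, at 21.7 TPM, lay inside the range of both groups, and without it the log2 difference was -0.13. In controls D3.5 and D0.5 differed by -0.27 ± 0.37, and in knockouts D3.5 was lower by a log2 difference of -3.47 ± 0.43 (-3.44 without the library labelled knockout 33).

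Digested uterus gave the same picture as undigested uterus. At D0.5 the 4 controls held between 13.3 and 27.9 TPM and the 3 knockouts held 215, 74.1 and 253 TPM (mice 25, 26 and 27), again with no overlap, a ratio of means of 9.8 and a log2 difference of 3.41 ± 0.41. At D3.5 controls (17.4 ± 5.83 TPM, n = 3) and knockouts (16.2 ± 5.6 TPM, n = 3) overlapped, with a log2 difference of -0.05 ± 0.43. Acod1 in DU was close to that of U of the same mouse, with a median ratio of 0.898 over 13 mice and a range of 0.511 to 1.55. The joint fit placed DU below U by -0.56 ± 0.22 on the log2 scale.

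Ordered by mean level, the 12 groups fell into an upper 5 and a lower 7. The upper 5 were LE D0.5 knockout (302 TPM), LE D3.5 control (223 TPM), U D0.5 knockout (209 TPM), LE D3.5 knockout (193 TPM) and DU D0.5 knockout (181 TPM). The lower 7 ran from 37.8 TPM in LE D0.5 control to 16.2 TPM in DU D3.5 knockout. Every group overlapped its next neighbour in this order, including the pair at the step from 181 to 37.8 TPM, where DU knockout 26 (74.1 TPM) was below LE control 2 (113 TPM). Mouse 2 was also the highest U control at D0.5, with 57.1 TPM, and mouse 26 was the lowest D0.5 knockout in U and in DU but the second highest in LE, with 417 TPM.

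How far Acod1 was concentrated in the epithelial scrape depended on the day. In mice with both tissues, Acod1 was higher in LE than in U in 14 of 17. At D3.5 the LE to U ratio of TPM had a median of 7.82 over 3 control mice (4.43 to 13.3) and of 10.2 over 4 knockout mice (9.06 to 17.1). At D0.5 the medians were 1.16 over 6 control mice (0.699 to 4.34) and 1.42 over 4 knockout mice (0.906 to 4.66), each range holding ratios below and above 1. In the joint fit of LE and U the log2 differences were 3.63 ± 0.48 and 3.21 ± 0.46 at D3.5, and 0.86 ± 0.37 and 0.81 ± 0.43 at D0.5, for controls and knockouts in that order.

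**Figure D2:**
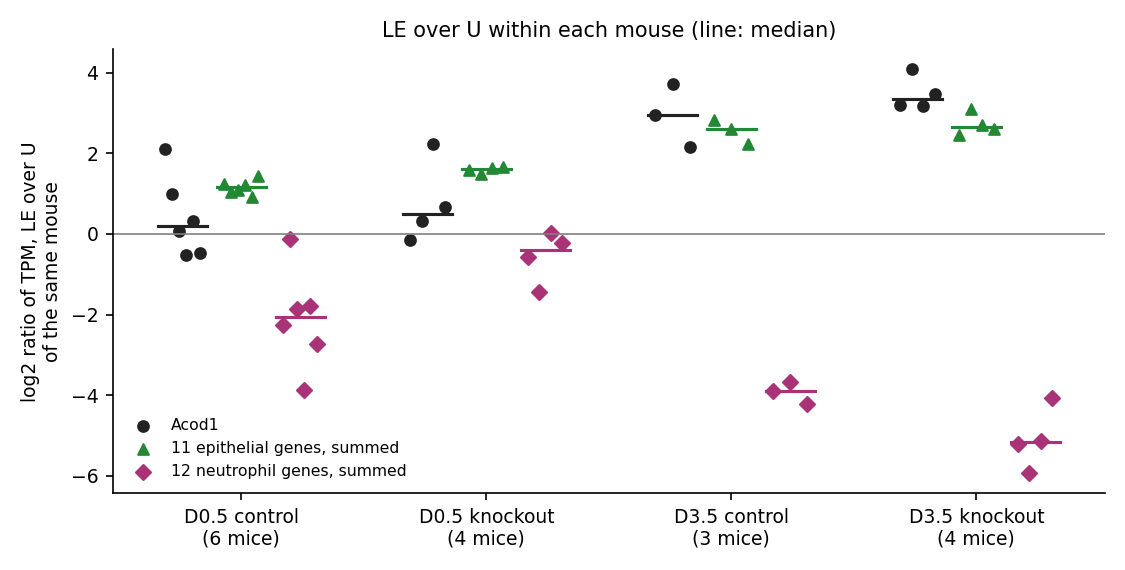
Log2 ratio of TPM in LE over U of the same mouse for Acod1, the sum of 11 epithelial genes and the sum of 12 neutrophil genes, 1 point per mouse; short lines are medians and 0 means equal levels. At D3.5 Acod1 sits with the epithelial genes (medians of Acod1 2.96 and 3.33, of the epithelial sum 2.6 and 2.66), and at D0.5 it lies between the epithelial and the neutrophil genes.

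The summed epithelial genes gave a scale for these ratios. Their median log2 ratio of LE over U was 1.16 and 1.61 at D0.5 and 2.6 and 2.66 at D3.5, in controls and knockouts. For Acod1 the corresponding medians were 0.204, 0.494, 2.96 and 3.33. The summed neutrophil genes had medians of -2.06, -0.392, -3.9 and -5.17, all on the side of U. Over all groups 1 of 11 neutrophil genes was called higher and 6 lower in LE than in U, where 65.8% of all genes were called. Per 1000 TPM of the epithelial sum, LE libraries held 1.4 to 12.6 TPM of Acod1 in D0.5 controls, 30.5 to 72 TPM in D0.5 knockouts, 32.4 to 55.4 TPM in D3.5 controls and 22.9 to 40.9 TPM in D3.5 knockouts.

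Neutrophil genes were then read in the same libraries. The list held 12 genes, among them S100a8 (a subunit of the neutrophil protein calprotectin), Csf3r (the receptor of the granulocyte growth factor G-CSF) and Retnlg (a resistin-like protein of neutrophils). In LE at D0.5 the summed neutrophil level was 29.3 to 1380 TPM in controls (median 323 TPM) and 3070 to 10100 TPM in knockouts (median 5970 TPM), so these genes separated the genotypes as Acod1 did. Of 11 members tested, 10 rose and 1 fell in knockouts, where 23.6% of all 15601 genes tested were called. Ngp and Mmp8 reached the count needed for testing through the D0.5 knockouts (means 2.03 and 9.52 TPM, against 0.0367 and 0.157 TPM in controls). For these genes a rise was built into being tested, so the count of 10 is a description. The test was edgeR's quasi-likelihood test with Benjamini-Hochberg adjustment over all genes of a comparison, and a gene was called at an adjusted p under 0.05. S100a8 rose by a log2 difference of 4.70 ± 0.75 (edgeR adjusted p = 4.11e-05), Csf3r by 3.46 ± 0.64 (edgeR adjusted p = 0.000211) and Retnlg by 6.24 ± 0.62 (edgeR adjusted p = 6.51e-08). The 1 that fell was Ly6g, a neutrophil surface protein, named here after its value was seen (log2 difference -2.26 ± 0.33). In bulk RNA, more cells of a type and more RNA per cell cannot be told apart.

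The same held in U and DU at D0.5, less firmly. In U, 7 of 11 neutrophil genes rose and none fell in knockouts, where 4.98% of all genes were called (2.02% higher and 2.96% lower), and S100a8 rose by 3.00 ± 0.76 (edgeR adjusted p = 0.0245). Csf3r (1.63 ± 0.49, edgeR adjusted p = 0.0597) and Retnlg (0.57 ± 0.37, edgeR adjusted p = 0.525) were not called there. In DU, 7 of 11 rose and none fell, where 8.06% were called (3.89% higher and 4.17% lower), with S100a8 at 3.39 ± 0.82 (edgeR adjusted p = 0.024). Ngp again reached the count needed for testing through the D0.5 knockouts, with means of 3.9 TPM in U and 3.91 TPM in DU (controls 0.161 and 0.213 TPM). The count of 7 in U was 2 without knockout 25, 3 without knockout 27 or control 3, and 4 without control 2 or 5. In DU it was 3 without control 5 or knockout 25 and 2 without knockout 27. Acod1 kept log2 differences of 2.82 to 3.31 in U and 3.08 to 3.78 in DU when each library of the groups compared was left out in turn.

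At D3.5 Acod1 was high in LE while the neutrophil genes were at or near 0. The summed neutrophil level was 8.01 to 16.4 TPM in the 4 controls and 5.77 to 43.4 TPM in the 6 knockouts. S100a8 was at 0 in 3 of 4 controls, where a count of 0 allows up to 0.127 to 0.223 CPM (3 counts, counting error only), and at 0.557 TPM in control 15. Trem1, Ngp, Camp and Stfa2l1 were at 0 in every LE control at D3.5, and Ngp and Stfa2l1 in every LE knockout, all of them genes of the neutrophil list. Ly6g made up 72.2% of what was left of the sum in controls. In knockouts against controls at D3.5 none of the 11 neutrophil genes rose and 1 (Ly6g) fell, where 13.5% of all genes were called (7.79% higher and 5.7% lower). Ngp and Stfa2l1, at 0 in all these libraries, could not be called in either direction. Mmp8 and Fpr1 were each at 0 in 5 of 6 knockouts, and in 3 and 2 of 4 controls. The count therefore says little about such genes.

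Set against the neutrophil sum, Acod1 stood at very different levels. Each TPM of neutrophil genes came with 13 to 24.9 TPM of Acod1 in LE controls at D3.5 and with 3.43 to 35.8 TPM in LE knockouts at D3.5. At D0.5 the same ratio was 0.0149 to 0.0975 in LE knockouts, 0.0189 to 0.0288 in U knockouts and 0.0188 to 0.0372 in DU knockouts. In LE controls at D0.5 it ran from 0.036 to 1.09, and the top values belonged to mice 1 and 7. Those 2 mice had the lowest neutrophil sums of the group (51.7 and 29.3 TPM) and 37.1 and 31.8 TPM of Acod1, close to the group's median of 31.8 TPM. In LE controls at D3.5, 72.2% of the sum was Ly6g. Unlike the other neutrophil genes called, Ly6g was higher in LE than in U over all groups (log2 difference 1.95 ± 0.24). The ratio was not computed without it.

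**Figure D3:**
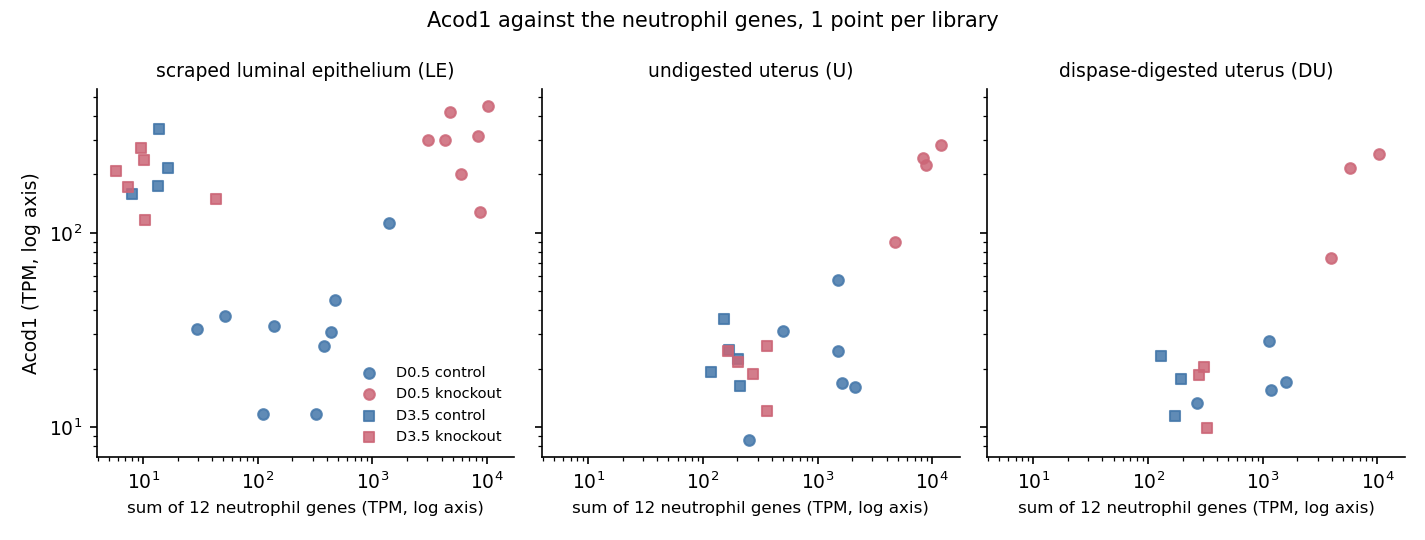
Acod1 against the sum of 12 neutrophil genes, both in TPM on log axes, 1 point per library, in LE, U and DU. In LE the D3.5 libraries (squares) combine high Acod1 with neutrophil sums of 5.77 to 43.4 TPM, while the D0.5 knockout libraries (red circles) are high in both.

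In U and DU at D3.5 the neutrophil sum was mostly 1 gene. Retnlg made up 90.3% of it in U controls (154 TPM, beside 4.32 TPM of S100a8) and 89.4% in U knockouts (243 TPM, beside 9.67 TPM of S100a8). Retnlg has close relatives with which reads can be shared, so its level is uncertain. Without Retnlg the sums were 13.1 to 21.2 TPM in U controls and 12 to 55.4 TPM in U knockouts at D3.5, and each TPM came with 1.06 to 2 and 0.302 to 1.61 TPM of Acod1. Without the library labelled knockout 33 the U knockouts held 257 TPM of Retnlg (88.8% of the sum) and 11.2 TPM of S100a8, the sums kept their range, and the ratio ran from 0.302 to 1.56. At D0.5 leaving Retnlg out made little difference to the knockouts, at 0.0207 to 0.0307 TPM of Acod1 per TPM in U and 0.0153 to 0.0992 in LE. In U at D3.5 no neutrophil gene was called with edgeR, where 0.0185% of all genes were called (3 genes, and 112 without the library labelled knockout 33). At an unadjusted p under 0.05, 2 neutrophil genes passed there, and DESeq2 called 0 of them. In DU at D3.5, where 0.574% of all genes were called, edgeR called none of 11 neutrophil genes (2 had an unadjusted p under 0.05) and DESeq2 called 2. Stfa2l1 was at 0 in every DU library at D3.5 and in 4 of 5 U libraries of each genotype, so it could hardly be called.

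The knockout effect on the neutrophil trio also differed between the days in LE. The difference of the effect (D3.5 minus D0.5), for which 16.5% of all genes were called, was -3.68 ± 1.02 for Csf3r (edgeR adjusted p = 0.0132) and -6.21 ± 1.10 for Retnlg (edgeR adjusted p = 0.000278). For S100a8, with most LE libraries at D3.5 at or near 0, it could not be estimated with any precision (SE 4.89, edgeR adjusted p = 0.913). Acod1's own difference over the same 4 groups was -3.58 ± 0.56, as given above.

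Other cell types that can express Acod1 were read in the same way. For LE knockouts at D0.5, each count below stands beside 23.6% of all genes called, 10.9% as higher and 12.6% as lower. Macrophage genes were split in knockouts, with 5 of 9 higher and 1 lower: C1qa and C1qb, which encode chains of complement C1q, rose by 1.56 ± 0.42 and 1.60 ± 0.44, and Cd68, a lysosomal protein, fell by 1.88 on the log2 scale. From D0.5 to D3.5 in LE controls, where Acod1 was also higher, 5 of 9 macrophage genes rose and 1 fell, where 44% of all genes were called. C1qa went from 4.11 ± 2.24 TPM (n = 9) to 34.5 ± 20 TPM (n = 4). The summed macrophage level in LE at D3.5 was 69.3 to 229 TPM in controls and 55.5 to 385 TPM in knockouts, below the 590 to 755 TPM of U controls, in which Acod1 was only 16.2 to 35.9 TPM. Of 6 genes shared by most leukocytes, 5 rose and 1 fell in LE knockouts at D0.5, where Ptprc, the common leukocyte antigen CD45, rose by 2.94 ± 0.47, Cd52 by 2.98 ± 0.47 and Coro1a by 3.21 ± 0.50. In the monocyte list only Plac8 was called in LE at D0.5; it fell in knockouts by 2.18 on the log2 scale and made up 99.7% of that list's sum in controls. Of the epithelial list in LE knockouts at D0.5, none of 11 rose and 6 fell, with Krt19 at -1.70 ± 0.27, Krt8 at -1.40 ± 0.24 and Epcam at -1.06 ± 0.20. Of 5 smooth muscle genes none rose and 1, Tagln, fell by 1.18 on the log2 scale. None of 7 stromal genes was called with edgeR or had an unadjusted p under 0.05, and Dcn, the most abundant of them, differed by 0.48 ± 0.43. The part of these cell types in the Acod1 differences was not tested.

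Within single groups, Acod1 was compared with the marker genes over mice of 1 genotype and day. In each of the 4 groups with at least 6 libraries, log2(CPM + 0.05) of Acod1 (CPM, counts scaled to a common library total) was set against 6 measures, 24 relations in all. Since Acod1 was chosen with its levels and these neutrophil genes in view, the correlations are a description with no test, over points that share the library total. With the neutrophil list mean, Pearson's r was 0.0761 in 7 LE D0.5 knockouts (Spearman's rho -0.179) and 0.435 in 9 LE D0.5 controls (rho 0.467). Without the 2 libraries farthest from the median of the neutrophil measure, r was 0.14 and 0.272. In 6 U D0.5 controls r was 0.623 (rho 0.0857) and turned to -0.804 without mice 1 and 3, so it rested on those mice. In 6 LE D3.5 knockouts r was -0.403 (rho -0.657) and 0.0736 without mice 34 and 36.

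The highest r of the 24 relations was with the epithelial list mean in the 7 LE D0.5 knockouts (r = 0.944, rho 0.964). Without mice 23 and 27 r was 0.807, and on log2(TPM + 0.1) it was 0.766. This is the top of 24 values, and the epithelial r varied between groups. In 9 LE D0.5 controls it was 0.117 (rho 0.0333), and -0.232 without mice 4 and 8. In 6 LE D3.5 knockouts it was 0.704 (rho 0.771), and 0.455 without mice 31 and 32. In 6 U D0.5 controls it was 0.57 (rho 0.886), and 0.513 without mice 1 and 8. Mouse 23 had both the lowest Acod1 (129 TPM) and the lowest summed epithelial level (4220 TPM) of the group, and its neutrophil sum (8655 TPM) was the second highest.

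The genes around Acod1 in its pathway were taken from lists, beginning with its inducers and their regulators. Of 14 inducer genes tested in LE at D0.5, 5 rose and none fell in knockouts (10.9% of all genes were called higher and 12.6% lower), with a list median of 0.33 on the log2 scale beside -0.01 over all genes. Cd14, a co-receptor for bacterial lipopolysaccharide, went from 511 ± 122 to 1620 ± 371 TPM (log2 difference 1.58 ± 0.19). Il1b, an inflammatory cytokine that neutrophils also make, rose by 2.90 ± 0.75, and Nfkb1, an NF-kB subunit, by 0.86 ± 0.17. Also higher, and named after their values were seen, were Irak3 (1.55 ± 0.42), which restrains Toll-like receptor signalling, and Myd88 (0.64 ± 0.20), which carries it. The list also holds Nfkbia and Tnfaip3, inhibitors of NF-kB, so its counts mix activators with inhibitors and do not measure induction. In U, 3 of 15 inducers rose and 1 fell (4.98% of all genes were called), and in DU 6 rose and 1 fell (8.06% were called), with Il1b, Cd14 and Nfkb1 among those that rose in both.

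From D0.5 to D3.5 in LE controls, where Acod1 was higher at D3.5, most genes of the inducer list, which includes inhibitors, were lower. In that comparison 1 of 14 inducers rose and 11 fell (21.2% of all genes were called higher and 22.8% lower). The 1 that rose was Myd88, the adaptor of most Toll-like receptors, from 38.3 ± 10.9 TPM (n = 9) to 720 ± 184 TPM (n = 4), a log2 difference of 4.11 ± 0.23. Tlr4 and Tlr2, receptors for bacterial products, fell by 2.18 and 4.01 on the log2 scale. Of 10 progesterone-responsive genes, 9 rose and none fell. Among them Ihh, a hedgehog ligand of the progesterone-primed epithelium, was at 0.0655 ± 0.0465 TPM at D0.5 and 177 ± 77.3 TPM at D3.5.

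In LE knockouts at D3.5 some of these genes were below control while Acod1 overlapped with it. Of 10 progesterone-responsive genes, none rose and 3 fell: Ihh by 2.20, Areg, an EGF-family ligand, by 2.38 and Cyp26a1, an enzyme that degrades retinoic acid, by 3.71 on the log2 scale. Of the inducers, 1 rose and 2 fell, among them Myd88, which fell by 2.36. Without knockout mice 35, 36 and 37, Ihh was the only progesterone-responsive gene called, and 2 inducers rose and 2 fell. The background of 13.5% (2105 genes) was 1131 genes when knockout mice 35, 36 and 37 were left out together and 3933 with limma on log2(TPM + 1). At D0.5, when Acod1 was higher in LE knockouts, 2 of 10 progesterone-responsive genes rose and 1 fell. There 23.6% of all genes were called (10.9% higher and 12.6% lower), so this count is near the background. Ihh stood at 0.212 ± 0.145 TPM in LE knockouts at D0.5.

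The supply of cis-aconitate was described by 8 genes. In LE knockouts at D0.5, 2 rose and 1 fell, where 23.6% of all genes were called. Idh2, the mitochondrial isocitrate dehydrogenase that uses NADP, went from 19.9 ± 7.85 to 86.4 ± 31.9 TPM (2.08 ± 0.25). Idh3a, a subunit of the NAD-dependent enzyme, rose by 0.68 ± 0.24. Slc25a1, the carrier that exports citrate from mitochondria, went from 94.5 ± 18.5 to 46.4 ± 6.76 TPM (-1.09 ± 0.14). The same 3 genes were called in the same directions at D3.5 (Idh2 1.62 ± 0.33, Idh3a 1.20 ± 0.33, Slc25a1 -1.04 ± 0.17), when Acod1 did not separate the genotypes, along with Aco1 and Cs, which fell, where 13.5% of all genes were called. Without knockout mice 35, 36 and 37 only Idh2 and Slc25a1 were called at D3.5, and without control mouse 2 the same 2 genes were the ones called at D0.5.

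The genes downstream of Acod1 were read against the same 23.6% of all genes called in LE at D0.5. Of 6 genes for the breakdown of itaconate, none rose and 1 fell in LE knockouts at D0.5: Suclg2, a subunit of succinyl-CoA ligase, by 0.52 on the log2 scale. None of the 4 subunits of succinate dehydrogenase was called with edgeR (none at an unadjusted p under 0.05 either), and Sdha, the most abundant by CPM, differed by -0.15 ± 0.13. Of 12 genes tested from the itaconate response, mostly NRF2 targets, 3 rose and 1 fell. Nqo1, a quinone reductase, went from 1.21 ± 0.722 to 4.99 ± 1.49 TPM (2.00 ± 0.36) and Gsr, glutathione reductase, rose by 0.57 ± 0.13. Hmox1, haem oxygenase, named after its value was seen, rose by 0.83 ± 0.26. Srxn1, sulfiredoxin and also an NRF2 target, fell by 1.22, so this list did not move one way.

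**Figure D4:**
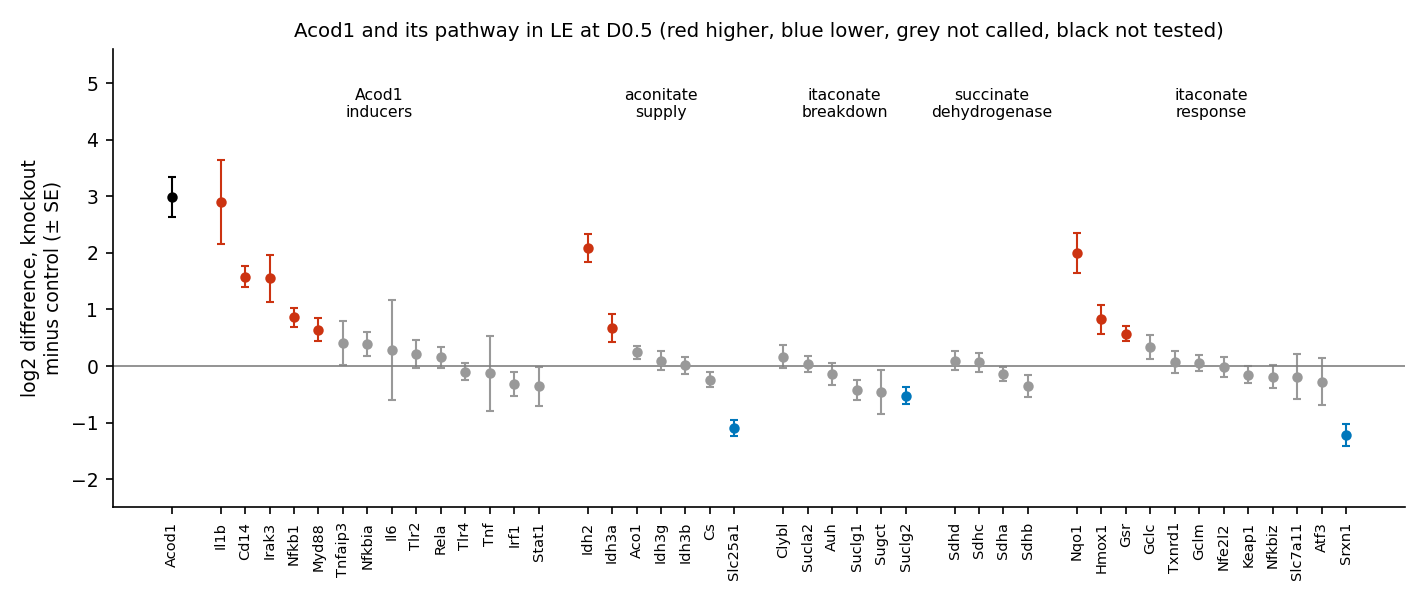
Log2 difference between knockout and control LE at D0.5 with its SE for Acod1 (black, not tested) and for tested genes of 5 pathway lists, red where called higher, blue where called lower and grey where not called. Acod1 stands at 2.99, next to Il1b (2.90), Idh2 (2.08) and Nqo1 (2.00), while succinate dehydrogenase and most of the breakdown genes lie near 0.

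The genes whose pattern was most like that of Acod1 were ranked by Pearson's r on log2(TPM + 0.1), among 12483 genes that reached 5 TPM in at least 1 group. These values describe points that share libraries and tissues, and carry no test. Over the 12 group means the closest were Gramd3 (r = 0.924), Sdc4 (0.918), Ntf3 (0.911), Rab20 (0.903) and Cdc42ep4 (0.888), leaving out a gene with a predicted name at rank 5. Gramd3 followed Acod1 in LE with a smaller range, at 64.9 ± 34.6 TPM in D0.5 controls, 177 ± 37.7 in D0.5 knockouts, 187 ± 43.9 in D3.5 controls and 181 ± 24 in D3.5 knockouts. Csf3r ranked 1694 (r = 0.296), S100a8 ranked 2119 (r = 0.226) and Retnlg ranked 6562 (r = -0.34).

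Within 1 tissue the ranking changed. Over the 26 LE libraries the closest genes were St3gal4 (r = 0.879), a sialyltransferase, Islr2 (0.878), Pik3ap1 (0.877), an adaptor of PI3-kinase signalling, Dram1 (0.87), a lysosomal membrane protein, and Tmem165 (0.869). St3gal4 was at 3.56 ± 2.51 TPM in D0.5 controls and at 51.9 ± 20.9, 60.3 ± 27.2 and 53 ± 23.1 TPM in D0.5 knockouts, D3.5 controls and D3.5 knockouts, the same set of 3 high groups as for Acod1. S100a8 ranked 7571 there (r = 0.0559), Csf3r 5094 (0.224) and Retnlg 3389 (0.338). Csf1r, the growth factor receptor of macrophages, ranked 240 (r = 0.677), Ihh ranked 1582 (0.47) and the epithelial gene Epcam ranked 12129 (-0.62). Over the 20 U libraries S100a8 ranked 86 (r = 0.747) and Csf3r 129 (r = 0.72), and over the 13 DU libraries S100a8 ranked 184 (r = 0.763).

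In the RefSeq gene order the nearest gene before Acod1 that was in the tables was Kctd12, 6 places away. Kctd12, which encodes a potassium channel tetramerisation domain protein, also rose in LE knockouts at D0.5 (2.84 ± 0.31, edgeR adjusted p = 2.76e-07), from 3.43 ± 2.38 to 25.7 ± 8.55 TPM. Kctd12 stood at 113 ± 44.2 TPM in U controls at D0.5 (n = 6) and was not called for genotype in U at D0.5 (0.20 ± 0.23, edgeR adjusted p = 0.812) or in DU (0.11 ± 0.14, edgeR adjusted p = 0.669).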

How the data were processed

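RNA sequencing of 59 libraries from 29 mice was used as 2 tables of 21706 genes. The first holds estimated counts made by the authors; kallisto 0.46.1 and GRCm39 are named per the submitters' processing notes (their gene-level summing: not stated there). A second table has the deposited TPM values of the same libraries, which sum to between 685000 and 820000 over these genes in each library. Estimated counts were rounded, scaled by TMM, filtered with filterByExpr (minimum count 10, minimum total count 15) and tested by quasi-likelihood F tests in edgeR 4.0.16 (R 4.3.3). Each fit had groups as terms and held every group of its tissue (of both tissues, for LE or DU against U). Benjamini-Hochberg adjustment ran over all genes of a comparison, and calls were made at an adjusted p under 0.05. The fit also gave the log2 difference and SE of Acod1, without a test. CPM values use the TMM library sizes.

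Acod1, its 13 companion gene lists and the comparisons were chosen with earlier results of these data known, so the counts on these lists are no independent support. The genes named were S100a8, Csf3r and Retnlg, up to 3 called members of a list with the smallest adjusted p (or the most abundant member where none was called), the 5 genes most like Acod1 over group means and over LE libraries, the nearest gene upstream, and genes said to be named after their values were seen. Levels between genes are compared in TPM only. Some results on genes that the rule names are not reported here.

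Alternatives were median-of-ratios size factors, no filter, the Wald test of DESeq2 1.42.0, limma 3.58.1 on log2(TPM + 1), TPM means, the mouse as a block, and each library left out in turn. Libraries sharing a mouse number come from the same animal, and their deviations from group means had a median correlation of 0.29 over 17 mice with LE and U and of 0.407 over 13 mice with DU and U. The scripts were tested on simulated data.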

Additional observations from a re-analysis of the deposited data

Results flagged for a closer look

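In LE at D0.5, control mouse 2 stood apart from the other 8 controls in Acod1, with 113 TPM against 11.6 to 45.2 TPM. The same library was also apart in S100a8, with 358 TPM against 0.591 to 139 TPM. In LE at D3.5, control 15 held 0.557 TPM of S100a8 where the other 3 controls held 0, a difference at the level of a few counts. These came from 36 checks of a gene in a group of 4 to 10 libraries. Chance alone gives about 1 in 20 only for normally distributed values, a rate that does not hold for skewed TPM such as these. A lone value above 0 among libraries at 0, as in control 15, is flagged whatever its size. The knockout effect in LE differed between D3.5 and D0.5 by -3.68 on the log2 scale for Csf3r (edgeR adjusted p = 0.0132) and by -6.21 for Retnlg (edgeR adjusted p = 0.000278). In both genes all 7 knockouts at D0.5 lay above all 9 controls, at 57.0 to 187.6 against 0.433 to 30.2 TPM for Csf3r and at 52.6 to 341 against 0.269 to 6.12 TPM for Retnlg.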

How the results depend on the processing

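Over 336 alternatives to 25 differences, Acod1 moved each time by less than 1 SD of single libraries within groups, and 21 differences never changed sign. That SD is a wide yardstick for a difference of means. In LE the D3.5 minus D0.5 difference in knockouts (-1.16) ran from -1.35 to -0.599 under other settings. The LE knockout difference at D3.5 (-0.592) ran from -0.728 to -0.2. The LE knockout difference at D0.5 (2.99) lay between 2.98 and 3.21 under other settings and between 2.82 and 3.34 with 1 library left out. The 6 sign changes were in differences near 0. With 1 library left out, 5 arose: values reached 0.03 in U and 0.21 in DU for genotype at D3.5, and 0.00081 in U and 0.02 in DU between the days in controls. The other was 0.07 in U between the days in controls, with limma on log2(TPM + 1).

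With the mouse as a replicate block, Acod1 in LE minus U was 2.12 on average (2.13 without the block), 0.65 and 1.02 at D0.5 and 3.42 and 3.40 at D3.5 in controls and knockouts; DU minus U was -0.45 (-0.56 without). Among gene calls, only the neutrophil genes in the average LE minus U were counted with the block, and 8 were called instead of 7.

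Of genes called for genotype, LE at D0.5 (3676) stayed within 2757 to 4096. LE at D3.5 (2105) gave 3933 with limma on TPM and 1131 without mice 35, 36 and 37. U at D0.5 (809) gave 1273 with DESeq2 and 459 to 967 with 1 library left out, and U at D3.5 (3) gave 1 with median-of-ratios size factors, 5 without the filter, 75 with DESeq2, 0 with limma and 0 to 112 with 1 library left out. DU at D0.5 (1306) gave 2126 with DESeq2 and 608 to 1528 with 1 left out, and DU at D3.5 (93) gave 255 and 34 to 64. Neutrophil genes called at D3.5 were 2 with DESeq2 in LE (1 with edgeR) and 2 in DU (0 with edgeR). With 1 library left out at D0.5 they were 2 to 9 in U and 2 to 8 in DU. The cause was not tested.

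Among 48 alternatives to the correlations, which carry no test, those that changed sign are given first. Without the 2 farthest libraries r turned to -0.0673 (Retnlg) and -0.232 (epithelial mean) in LE D0.5 controls. It turned to -0.5 (S100a8) and 0.32 (Retnlg) in LE D0.5 knockouts, to 0.0736 (neutrophil), 0.298 (Csf3r) and 0.641 (macrophage) in LE D3.5 knockouts, and to -0.804 (neutrophil), -0.662 (S100a8) and -0.53 (Csf3r) in U D0.5 controls. On log2(TPM + 0.1) it turned to -0.11 (neutrophil) and -0.152 (S100a8) in LE D0.5 knockouts, where the epithelial r of 0.944 was 0.766 on that scale and 0.807 without 2 libraries. Other large moves kept their sign. Without mice 1 and 7, r in LE D0.5 controls went from 0.318 to 0.815 (S100a8) and from 0.301 to 0.806 (Csf3r). Without mice 35 and 36 it went from 0.0636 to 0.808 (S100a8) in LE D3.5 knockouts. The macrophage r shrank from 0.429 to 0.0396 in LE D0.5 controls and from -0.638 to -0.0786 in LE D0.5 knockouts. The cause was not tested.

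Groups of 3 to 9 mice set the precision, and counting error was small at 299 or more Acod1 counts. Within a tissue, p values set a difference against the spread between mice, estimated over all groups of that tissue. For LE or DU against U, the main fit took libraries of the same mouse as independent.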
